A study of Mus musculus with 16 samples.

Results

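Genes of extracellular metalloproteases, of their protease-like relatives and of their inhibitors were followed in the left ventricle of mice. They were taken from the deposited gene table by symbol: the matrix metalloproteinases (Mmp genes), the ADAMTS proteases, the ADAMTS-like proteins (Adamtsl genes) and the tissue inhibitors of metalloproteinases (Timp genes). The table holds 51 such genes of 56953, namely 23 Mmp, 19 Adamts, 5 Adamtsl and 4 Timp genes. The data were 16 libraries of polyadenylated RNA from left ventricles of Bl6J mice, with 4 animals to a group and 4 groups. Both genotypes, wild type (WT) and homozygous carriers of the missense change P635L in RBM20, a splicing factor of heart muscle, were studied. All 16 mice had an AAV9 virus injected into the tail vein when 4 weeks old, at 1e12 viral genomes, and their hearts were taken 12 weeks later, at an age of 16 weeks. The virus carried either the cDNA of Tnpo3, whose product carries proteins into the nucleus, or, in the Ctr groups, a construct with iCre and eGFP behind the ubiquitously active CAG promoter. The groups are called WT Ctr and P635L Ctr (control virus) and WT Tnpo3 and P635L Tnpo3 (Tnpo3 virus). No group without virus was analysed here, the promoter of the Tnpo3 construct is not given in the sources used here, and males and females were used without a label for the single mouse.

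Library totals ran from 28493249 to 85922669 counts. The gene ENSMUSG00000119584 held 19.96% to 22.65% of the counts in WT Ctr replicates 2 and 4 and WT Tnpo3 replicate 4, against 0.7% to 5.3% in the other libraries. Xist was high in WT Ctr replicate 4 and WT Tnpo3 replicates 2 and 4, and low in the 8 P635L libraries. WT Ctr replicate 1 had a summed level of 5 lymphocyte markers of 45.6 CPM (counts scaled to library size), against 1.57 to 5.88 CPM in the other 15 libraries. Tnpo3 itself, which checks the labels, was higher with its virus by a log2 fold change of 2.84 (SE 0.30) in WT hearts and 3.38 (SE 0.30) in P635L hearts (edgeR, adjusted p = 0.000814 and 1.49e-05). The 6 markers of ventricular cardiomyocytes summed to 44300 to 72400 CPM, and of 4 atrial markers Sln and Myl7 were too low to be tested. The summed atrial markers, with Nppa, the natriuretic peptide gene, among them, were 151 to 410 CPM in WT Ctr, 193 to 292 in WT Tnpo3, 5140 to 9810 in P635L Ctr and 919 to 4520 CPM in P635L Tnpo3, with replicate 4 the highest of the last group.

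Matrix metalloproteinases are zinc-dependent endopeptidases that are made as inactive precursors and cleave collagens, gelatin, elastin and other matrix or cell-surface proteins. ADAMTS proteases share the metalloprotease fold and carry thrombospondin repeats. Some of them cleave proteoglycans such as versican and aggrecan, and others remove the amino-terminal propeptide of fibrillar procollagens. ADAMTS-like proteins have the thrombospondin repeats but no protease domain, and several of them bind fibrillin microfibrils. TIMPs are small secreted proteins that block the active site of matrix metalloproteinases. In the heart, most of these genes are known from fibroblasts, vessel cells and leukocytes, and their balance is studied in remodelling of the ventricle.

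Promoter windows show how unlike the starts of these genes are, and 4 are printed here, from 2 genes that rose in P635L hearts and 2 genes of the Mmp cluster on chromosome 9 that did not pass the test. They are the 250 bases before an annotated start, from RefSeq on GRCm38.p6, 5′ to 3′ on the gene's strand. The windows are chr4:155653291-155653540 (minus strand) for Mmp23, chr2:27079129-27079378 (plus strand) for Adamtsl2, chr9:7445572-7445821 (plus strand) for Mmp3 and chr9:7272264-7272513 (plus strand) for Mmp13. Capitals mark matches, on either strand, to 5 short motifs: the AP-1 site TGANTCA, the TATA box TATAAA, the GC box GGGCGG, the M-CAT element CATTCC and a SMAD-type element CAGACA.
Mmp23: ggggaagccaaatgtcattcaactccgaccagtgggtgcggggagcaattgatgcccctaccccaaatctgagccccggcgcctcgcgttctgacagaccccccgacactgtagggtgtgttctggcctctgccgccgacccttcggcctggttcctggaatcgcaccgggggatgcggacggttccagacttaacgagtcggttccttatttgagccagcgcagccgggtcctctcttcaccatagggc
Adamtsl2: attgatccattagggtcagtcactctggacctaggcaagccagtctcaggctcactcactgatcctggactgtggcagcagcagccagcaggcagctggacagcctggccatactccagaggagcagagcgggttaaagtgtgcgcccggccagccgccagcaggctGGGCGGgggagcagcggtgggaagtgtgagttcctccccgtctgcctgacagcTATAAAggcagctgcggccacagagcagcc
Mmp3: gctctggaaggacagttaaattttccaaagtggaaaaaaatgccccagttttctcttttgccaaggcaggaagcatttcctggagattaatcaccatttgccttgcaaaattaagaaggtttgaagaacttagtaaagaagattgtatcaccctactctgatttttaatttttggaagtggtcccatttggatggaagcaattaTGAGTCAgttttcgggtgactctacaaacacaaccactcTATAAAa
Mmp13: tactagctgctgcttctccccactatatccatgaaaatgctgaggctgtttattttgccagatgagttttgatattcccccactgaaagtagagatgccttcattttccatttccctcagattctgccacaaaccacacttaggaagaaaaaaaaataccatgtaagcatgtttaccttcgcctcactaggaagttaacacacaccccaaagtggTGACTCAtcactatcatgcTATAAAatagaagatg
Of the windows printed, those of Mmp3 and Mmp13 hold an AP-1 match and a TATA match, that of Adamtsl2 holds a GC box and a TATA match, and that of Mmp23 holds none of the 5. A window was in the table for 36 of the 51 members, with 39 windows in all, and Mmp2 and Adamts8 were not among them. An AP-1 match stood in 6.7% of all 32851 windows of this length and in the windows of 8 members. All 8 lie among the 10 members of the chromosome 9 cluster (Mmp1a, Mmp1b, Mmp3, Mmp7, Mmp10, Mmp12, Mmp13 and Mmp20), and 0 of the 26 members with a window elsewhere had one. The GC box went the other way: it stood in 32.7% of all windows, in 20 members outside the cluster and in 0 of the 10 cluster members. Of the 9 members with a window that changed in P635L hearts, 8 had a GC box and 0 had an AP-1 match. All 9 lie outside the cluster, where 20 of the 26 members had a GC box and 0 an AP-1 match. The AP-1 count was thus fixed by where they lie, and neither count is a trait of the changed genes. The TATA box stood in 12.4% of all windows and 25.6% of the members' windows, the M-CAT element in 12.6% and 5.1%, and the SMAD-type element in 17.1% and 15.4%. A match is a run of letters and not a shown binding site.

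Levels per length are given as CPM per kilobase of exon, the one scale on which the genes are compared with each other. In WT Ctr hearts the highest were Timp2, the inhibitor that also takes part in activating pro-MMP2, at 28.4 ± 5.05 (SD, n = 4), Mmp15, a membrane-bound MMP, at 27.5 ± 3.79, and Adamtsl5, a secreted fibrillin-binding protein, at 26.1 ± 2.47 CPM per kb. These 3 means differed by less than their SDs. Adamtsl4, Timp1, Timp3, Adamts10 and Mmp2 followed between 13.8 and 9.53 CPM per kb, with SDs from 1.12 to 16.6, so that neighbours in this order did not differ beyond their spread. Proteases known from leukocytes stood in the lower part of the order, with Mmp9 (gelatinase B) at 0.337 ± 0.108 and Mmp12 (macrophage elastase) at 0.109 ± 0.12 CPM per kb. Summed over a family, the Mmp genes reached 57.2 ± 4.9 in WT Ctr, 56.2 ± 0.987 in WT Tnpo3, 83.7 ± 5.05 in P635L Ctr and 58.7 ± 8.93 CPM per kb in P635L Tnpo3. The Adamtsl sum was 43.4 ± 5.23, 41.9 ± 0.509, 75.7 ± 6.26 and 57.6 ± 4.26 CPM per kb in the same order. The Adamts sums were 36.1 ± 5.19, 35.3 ± 4.53, 44.8 ± 6.27 and 46.5 ± 3.84 CPM per kb, with both P635L means above both WT means and no lower mean in P635L Tnpo3 than in P635L Ctr. For the Timp genes the sums were 57.6 ± 16.3, 60.1 ± 9.63, 60 ± 9.47 and 65.7 ± 3.82 CPM per kb. The P635L Ctr sums of the Mmp and Adamtsl genes thus stood above both WT means by more than the SDs, while the Timp sums of the 4 groups lay within their SDs. Only 2 of the 5 Adamtsl genes, Adamtsl2 and Adamtsl5, had a log2 fold change above 0 between P635L Ctr and WT Ctr. The median of these 5 was -0.07. Mmp23 alone moved from 5.66 ± 0.712 to 29.5 ± 3.75 CPM per kb and became the highest Mmp gene of P635L Ctr hearts, with 35.2% of the family's sum.

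**Figure D1:**
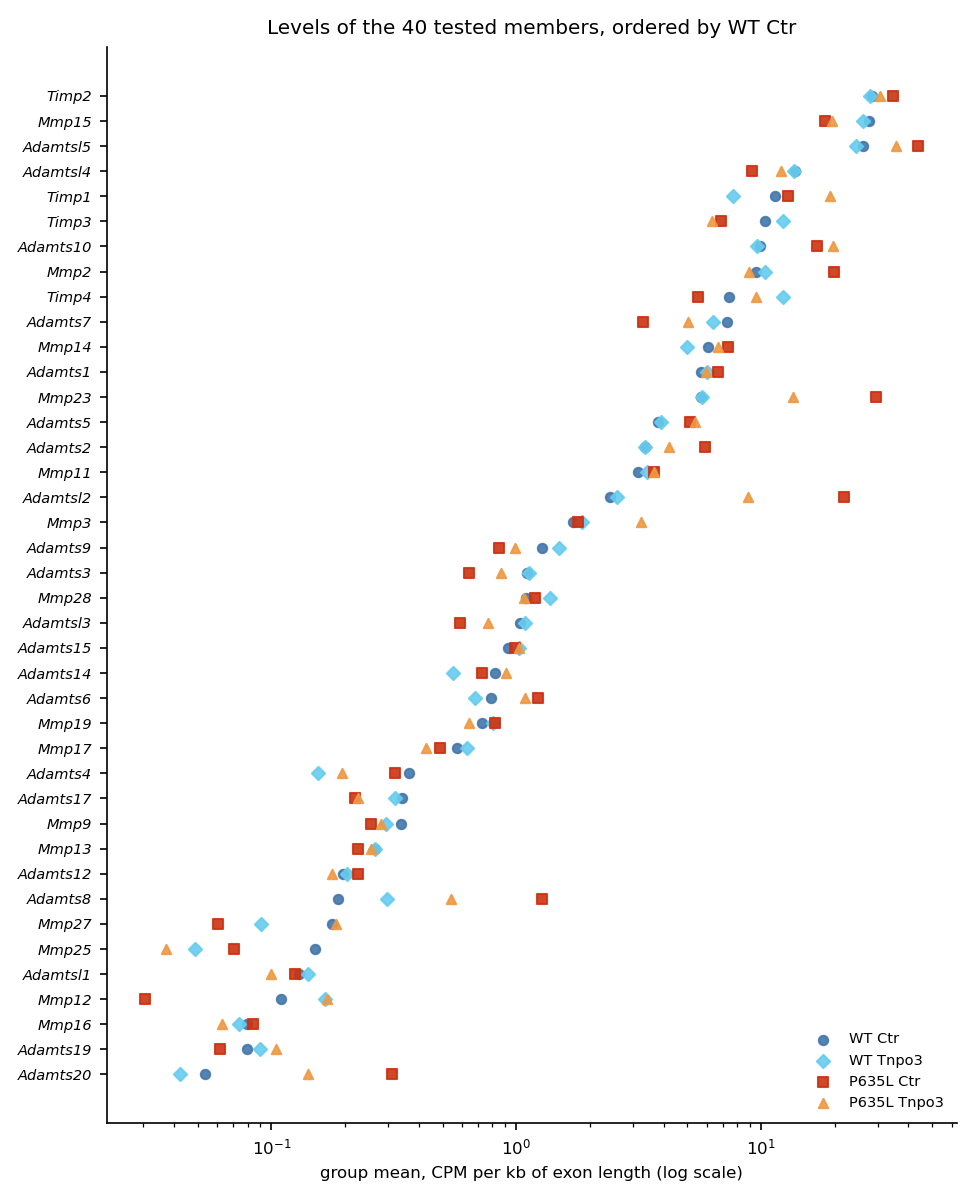
Mean level of each of the 40 tested genes in the 4 groups, in CPM per kilobase of exon on a log axis (n = 4 libraries a group), ordered by WT Ctr. Timp2, Mmp15 and Adamtsl5 lead in WT Ctr, and the P635L Ctr points of Adamtsl2, Mmp23, Adamts8 and Adamts20 lie far to the right of the WT points.

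Of the 51 genes, 40 had enough counts to be tested (15 Mmp, 16 Adamts, 5 Adamtsl and 4 Timp). Among those left out, Mmp1a, Mmp1b, Mmp7 and Mmp20 had 0 counts in all 16 libraries. Mmp8, Mmp10, Mmp21, Mmp24, Adamts13, Adamts16 and Adamts18 had between 4 and 124 counts summed over the 16 libraries. For 37 of the 40 tested genes every library of every group was above 0.253 CPM, the level of 10 counts in the median library. The exceptions were Mmp12, Mmp25 and Mmp27, and none of these 3 passed the test in any comparison.

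In P635L Ctr hearts 12 of the 40 tested genes differed from WT Ctr (30%), against 14.2% of all 18662 genes tested. The P635L Ctr libraries were higher for 7 of them, Adamtsl2, Adamts8, Adamts20, Mmp23, Mmp2, Adamts2 and Adamtsl5, and lower for 5, Adamts7, Adamts3, Mmp15, Adamtsl4 and Adamts9 (7.07% and 7.14% of all genes). By family these were 3 of 15 Mmp, 6 of 16 Adamts, 3 of 5 Adamtsl and 0 of 4 Timp genes. The groups did not overlap for 8 genes on the higher side and 2 on the lower side, against 9.71% and 9.43% of all genes. The median log2 fold change of the 40 was 0.07, against -0.05 for all genes, and the median absolute change was 0.51 against 0.28. The calls are edgeR quasi-likelihood tests over all genes with an adjusted p under 0.05. In bulk tissue, a change in the number of cells of a type and a change in RNA per cell cannot be told apart.

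**Figure D2:**
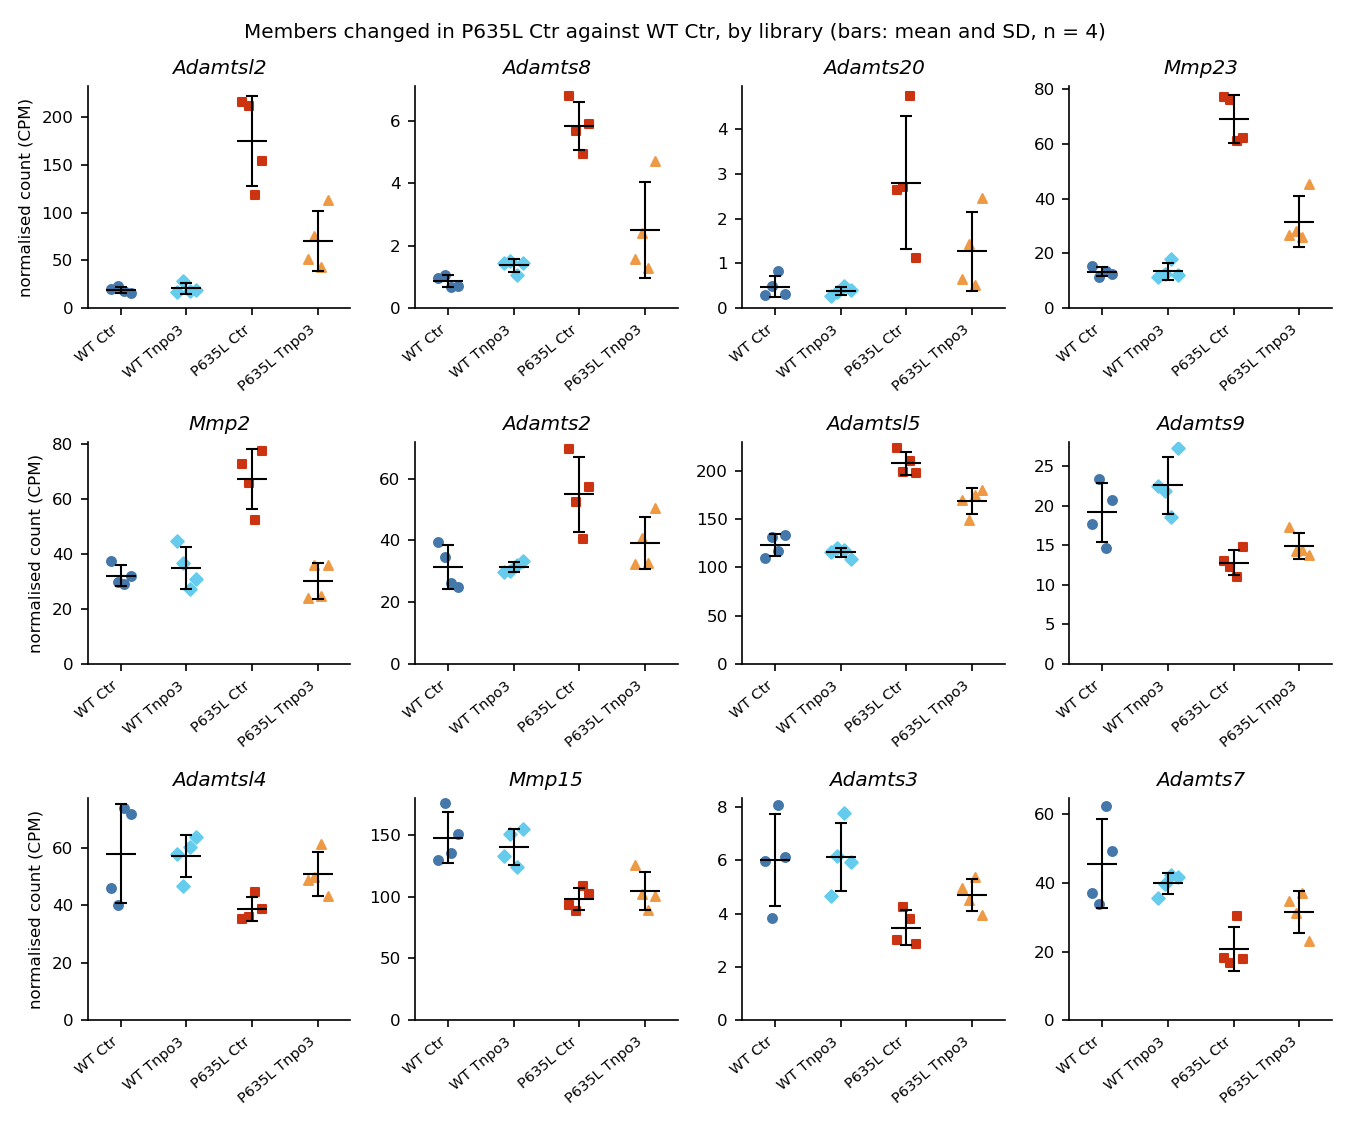
Normalised counts (CPM, axes from 0) of the 12 genes that differed between P635L Ctr and WT Ctr, 1 point a library, with the mean and SD of 4 libraries. For Mmp23 and Adamtsl2 all P635L Ctr points lie above all others, and P635L Tnpo3 lies between P635L Ctr and the WT groups.

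Mmp23 (chromosome 4, 155735112 to 155737841, minus strand, GRCm39) encodes a membrane-anchored MMP that lacks the hemopexin domain of most of the family. The 4 WT Ctr libraries held 15.4, 11.5, 13.5 and 12.6 CPM of it, and the P635L Ctr libraries 77.1, 76.1, 60.9 and 62.0 CPM. Every P635L Ctr library stood far above every WT Ctr library, a 5.21-fold difference (log2 fold change 2.38, SE 0.19, adjusted p = 1.97e-07). Mmp2, gelatinase A, lies on chromosome 8 from 93553919 to 93580048 (plus strand). It was 37.5, 29.9, 29.0 and 32.1 CPM in WT Ctr against 72.6, 65.9, 52.5 and 77.6 in P635L Ctr. The groups were apart and differed 2.09-fold (log2 fold change 1.06, SE 0.17, adjusted p = 0.000368). Gm45472, a gene on the other strand, shares 25.5% of the exon bases of Mmp2, but held 480 counts in all libraries against 30549 for Mmp2, and whether the counting used strand is not given in the sources used here. Mmp15, membrane type 2 MMP, lies on chromosome 8 from 96078896 to 96101708 (plus strand) and went the other way. It was 130, 176, 136 and 151 CPM in WT Ctr against 93.5, 88.9, 109 and 102 in P635L Ctr, again without overlap. The ratio was 1.51-fold lower (log2 fold change -0.59, SE 0.13, adjusted p = 0.00384), and without the 3 libraries rich in ENSMUSG00000119584 it was -0.40 with an adjusted p of 0.0569.

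Mmp14, Mmp9 and Mmp12 did not pass the test. Mmp14, membrane type 1 MMP and an activator of pro-MMP2, was 57.5, 38.0, 28.1 and 21.0 CPM in WT Ctr against 49.5, 43.2, 35.6 and 47.2 in P635L Ctr. The P635L Ctr values lay inside the WT Ctr range (log2 fold change 0.28, SE 0.27, adjusted p = 0.53). Mmp9 was 1.12, 1.36, 1.59 and 0.695 CPM in WT Ctr against 0.415, 0.929, 1.53 and 0.735 in P635L Ctr, and the groups overlapped (log2 fold change -0.40, SE 0.45, adjusted p = 0.601). Low counts left Mmp12, macrophage elastase, with a wide error: its log2 fold change was -1.77 (SE 0.76, adjusted p = 0.136).

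Among the ADAMTS proteases that cleave proteoglycans, 2 rose by several fold from a low level. Adamts8 (chromosome 9, 30853858 to 30875134, plus strand) was 0.977, 1.07, 0.685 and 0.724 CPM in WT Ctr against 6.82, 5.68, 4.95 and 5.92 in P635L Ctr. Its groups were far apart, at 6.80-fold (log2 fold change 2.76, SE 0.34, adjusted p = 1.82e-05), and Gm29724 on the other strand shares 10.6% of its exon bases. Adamts20 (chromosome 15, 94168044 to 94363299, minus strand) was 0.289, 0.495, 0.822 and 0.319 CPM in WT Ctr against 2.65, 2.7, 4.74 and 1.13 in P635L Ctr. The 2 groups did not overlap, although the P635L Ctr libraries spread widely (log2 fold change 2.52, SE 0.51, adjusted p = 0.00244). Adamts9, another protease of versican, fell from 19.1 ± 3.77 to 12.8 ± 1.58 CPM (log2 fold change -0.58, SE 0.15, adjusted p = 0.0126). Its groups overlapped, and the call was lost when WT Ctr replicate 2 (adjusted p = 0.0655), P635L Ctr replicate 2 (0.0528) or the 3 ENSMUSG00000119584-rich libraries (0.187) were left out.

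Adamts5, Adamts4 and Adamts1 did not pass the edgeR test. Adamts5 was 43.1, 47.0, 42.4 and 31.2 CPM in WT Ctr against 64.4, 50.2, 49.3 and 58.6 in P635L Ctr. Although no library overlapped, the log2 fold change of 0.44 (SE 0.17) missed the threshold at an adjusted p of 0.0823. It passed in 3 of 26 alternative analyses, without a filter on low counts (adjusted p = 0.0404), with DESeq2 (0.0475) and with only the 2 groups fitted (0.0489). Adamts4 was 3.08, 2.76, 0.904 and 0.29 CPM in WT Ctr against 2.47, 0.739, 1.32 and 1.64 in P635L Ctr, with the latter inside the WT Ctr range (log2 fold change -0.18, SE 0.57, adjusted p = 0.871). Adamts1, which cleaves versican and aggrecan, was 14.8, 38.0, 33.8 and 33.2 CPM in WT Ctr against 40.6, 40.1, 23.0 and 37.7 in P635L Ctr. These groups overlapped too (log2 fold change 0.24, SE 0.24, adjusted p = 0.559).

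Adamts2 and Adamts3 went opposite ways, and Adamts14 did not pass the test (log2 fold change -0.17, SE 0.32, adjusted p = 0.765). Adamts2 (chromosome 11, 50492911 to 50698400, plus strand), which removes the amino-terminal propeptide of fibrillar procollagens, was 39.6, 34.8, 26.1 and 24.9 CPM in WT Ctr against 69.6, 52.3, 40.5 and 57.2 in P635L Ctr. The lowest P635L Ctr library stood just above the highest WT Ctr library (log2 fold change 0.81, SE 0.18, adjusted p = 0.00442). Adamts3, its close relative, was lower, at 6.0 ± 1.74 CPM in WT Ctr against 3.47 ± 0.666 in P635L Ctr (log2 fold change -0.79, SE 0.21, adjusted p = 0.0183), with overlapping groups. That call was lost without WT Ctr replicate 3, P635L Ctr replicate 1 or P635L Ctr replicate 4 (adjusted p = 0.0715, 0.0723 and 0.0642), and in 2 further alternative analyses. Adamts7 (chromosome 9, 90045122 to 90090124, plus strand), a protease of cartilage oligomeric matrix protein, was 37.2, 33.9, 62.4 and 49.2 CPM in WT Ctr against 18.2, 16.7, 30.4 and 17.8 in P635L Ctr. It was 2.20-fold lower without overlap (log2 fold change -1.14, SE 0.21, adjusted p = 0.00117). Tbc1d2b on the other strand shares 1.9% of its exon bases.

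The largest fold change of all 40 genes was in an ADAMTS-like gene. Adamtsl2 (chromosome 2, 26969391 to 26998993, plus strand), whose product binds fibrillin and a latent TGF-beta binding protein, was 20, 23.1, 18.1 and 15.8 CPM in WT Ctr against 216, 212, 118 and 154 in P635L Ctr. The groups were separated by a wide gap, at 9.11-fold (log2 fold change 3.19, SE 0.29, adjusted p = 1.97e-06). Adamtsl5 (chromosome 10, 80174944 to 80184246, minus strand), already the highest of its family, went from 110, 131, 117 and 134 CPM to 224, 199, 210 and 198 CPM. This 1.69-fold rise was small but even across the libraries (log2 fold change 0.75, SE 0.10, adjusted p = 4.28e-05). Adamtsl4, a protein of fibrillin microfibrils, fell from 57.9 ± 17.3 to 38.5 ± 4.19 CPM with overlap (log2 fold change -0.59, SE 0.18, adjusted p = 0.0298), and it lost its call in 8 of 26 alternative analyses.

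None of the 4 inhibitors passed the edgeR test between P635L Ctr and WT Ctr, and 0 of 4 had an unadjusted p under 0.05, against 28.1% of all genes. DESeq2 gave adjusted p of 0.16, 0.356 and 0.23 for Timp2, Timp3 and Timp4 and none for Timp1. Timp1 was 32.1, 5.16, 1.34 and 1.85 CPM in WT Ctr against 12.0, 14.7, 6.27 and 12.8 in P635L Ctr. The 4 P635L Ctr libraries lay above 3 of the WT Ctr libraries and below the fourth, replicate 1 (log2 fold change 0.19, SE 0.75, adjusted p = 0.9). Without that library it was 2.08 with an adjusted p of 0.00413. The same library had the highest level of the lymphocyte markers given above, and its macrophage markers summed to 440 CPM against 137 to 309 CPM in the other 15 libraries. Their part in its Timp1 level was not tested. Timp2 was 135, 139, 92.6 and 114 CPM in WT Ctr against 146, 144, 121 and 177 in P635L Ctr, with overlap (log2 fold change 0.29, SE 0.14, adjusted p = 0.196). Timp3, the matrix-bound inhibitor that also blocks aggrecanases, was 39.9, 69.6, 68.2 and 160 CPM against 45.7, 52.7, 59.0 and 66.5 CPM, and P635L Ctr sat inside the wide WT Ctr range (log2 fold change -0.60, SE 0.37, adjusted p = 0.317). Timp4, known for its expression in heart, was 34.4, 41.8, 43.8 and 54.5 CPM against 34.1, 28.2, 29.7 and 38.3 CPM (log2 fold change -0.42, SE 0.23, adjusted p = 0.247), and its groups overlapped. Syn3 on the other strand shares 21.3% of the exon bases of Timp3.

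**Figure D3:**
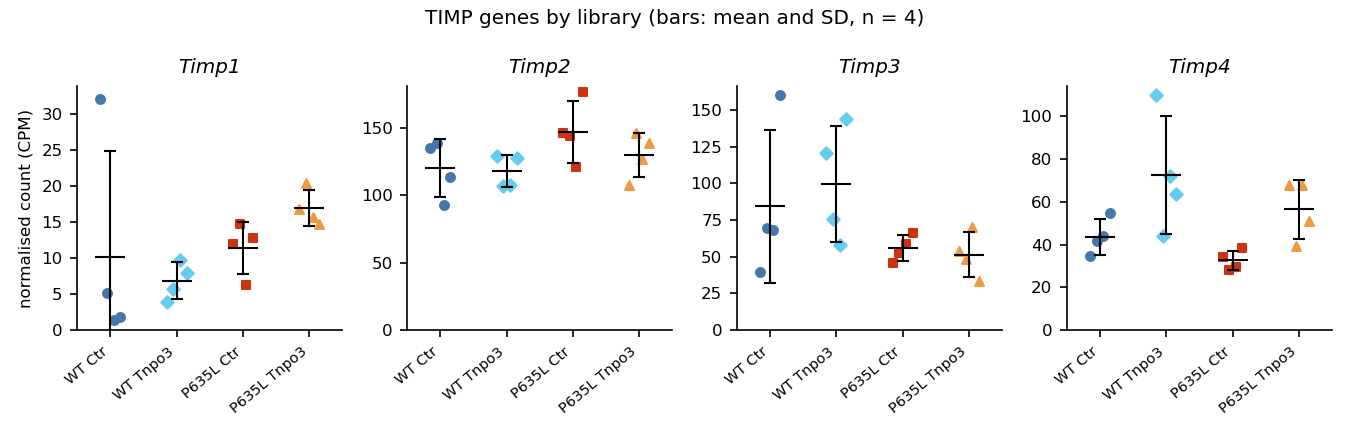
Normalised counts (CPM, axes from 0) of the 4 inhibitor genes by library, with the mean and SD of 4 libraries; the lower SD bar of Timp1 in WT Ctr is drawn only down to 0. WT Ctr replicate 1 stands at 32.1 CPM for Timp1, and the P635L Tnpo3 points of Timp4 lie above those of P635L Ctr.

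With the Tnpo3 virus, 4 of the 40 genes differed between P635L Tnpo3 and P635L Ctr (10%), all lower with Tnpo3, against 3.88% of all genes in both directions and 2.25% on the lower side. They were Mmp2, Mmp23, Adamtsl2 and Adamts8, and all 4 are among the genes that were higher in P635L Ctr than in WT Ctr. Both comparisons share the P635L Ctr libraries. The groups did not overlap for 5 genes on the lower side and 3 on the higher side, against 11.0% and 9.36% of all genes. The median log2 fold change of the 40 was -0.06, against 0.01 for all genes.

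Mmp2 was 24.2, 35.9, 24.9 and 35.9 CPM in P635L Tnpo3, all below the lowest P635L Ctr library and none above the highest WT Ctr library (log2 fold change against P635L Ctr -1.15, SE 0.17, adjusted p = 0.000952). Mmp23 was 26.7, 28.1, 25.9 and 45.4 CPM, below P635L Ctr and above WT Ctr in every library (log2 fold change -1.13, SE 0.18, adjusted p = 0.00152). Adamtsl2 was 51.6, 75.3, 42.9 and 113 CPM (log2 fold change -1.31, SE 0.27, adjusted p = 0.0129). Its highest library came close to the lowest P635L Ctr library without reaching it, and the call was lost without a filter on low counts (adjusted p = 0.0504) and with only the 2 groups fitted (0.0518). Adamts8 was 1.59, 2.40, 1.30 and 4.72 CPM, with its highest library just under the lowest of P635L Ctr (log2 fold change -1.22, SE 0.31, adjusted p = 0.0317). Replicate 4 was the highest P635L Tnpo3 library for Mmp23, Adamtsl2 and Adamts8. The Adamts8 call was lost without any one of P635L Ctr replicates 1, 2 or 4 or P635L Tnpo3 replicates 1, 2 or 3, with adjusted p between 0.0871 and 0.108.

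Other genes moved without passing the test. Adamtsl5 was 170, 149, 175 and 180 CPM in P635L Tnpo3, between the WT Ctr and P635L Ctr libraries with no overlap on either side (log2 fold change -0.30, SE 0.10, adjusted p = 0.102). Adamts20 was 0.659, 1.43, 0.525 and 2.45 CPM and overlapped P635L Ctr (log2 fold change -1.14, SE 0.47, adjusted p = 0.195). Adamts2 was 32.5, 40.9, 32.8 and 50.4 CPM, with overlap (log2 fold change -0.49, SE 0.18, adjusted p = 0.137). Of the genes that were lower in P635L Ctr, Adamts7 was 34.6, 31.2, 37.0 and 23.0 CPM (log2 fold change 0.60, SE 0.21, adjusted p = 0.12). Mmp15 was 126, 102, 89.6 and 101 CPM (log2 fold change 0.09, SE 0.13, adjusted p = 0.781). Replicate 4 of P635L Tnpo3 was the 1 library of Adamts7 inside the P635L Ctr range, and for Mmp15 all but replicate 1 were inside it.

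Of the inhibitors, Timp4 was 67.7, 39.2, 67.6 and 51.2 CPM in P635L Tnpo3. All 4 libraries were above all P635L Ctr libraries, yet the log2 fold change of 0.79 (SE 0.23) missed the threshold at an adjusted p of 0.0663. In 7 of 26 alternative analyses it passed, among them DESeq2 (adjusted p = 0.0147). Timp1 was 16.9, 20.5, 15.7 and 14.8 CPM, also above every P635L Ctr library (log2 fold change 0.57, SE 0.74, adjusted p = 0.758). Timp2 (log2 fold change -0.18, SE 0.14) and Timp3 (-0.12, SE 0.37) overlapped, with adjusted p of 0.572 and 0.907. Mmp14, Mmp9, Adamts1, Adamts4 and Adamts5 overlapped as well, with log2 fold changes of -0.14, 0.13, -0.16, -0.72 and 0.07 and adjusted p between 0.563 and 0.918.

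**Figure D4:**
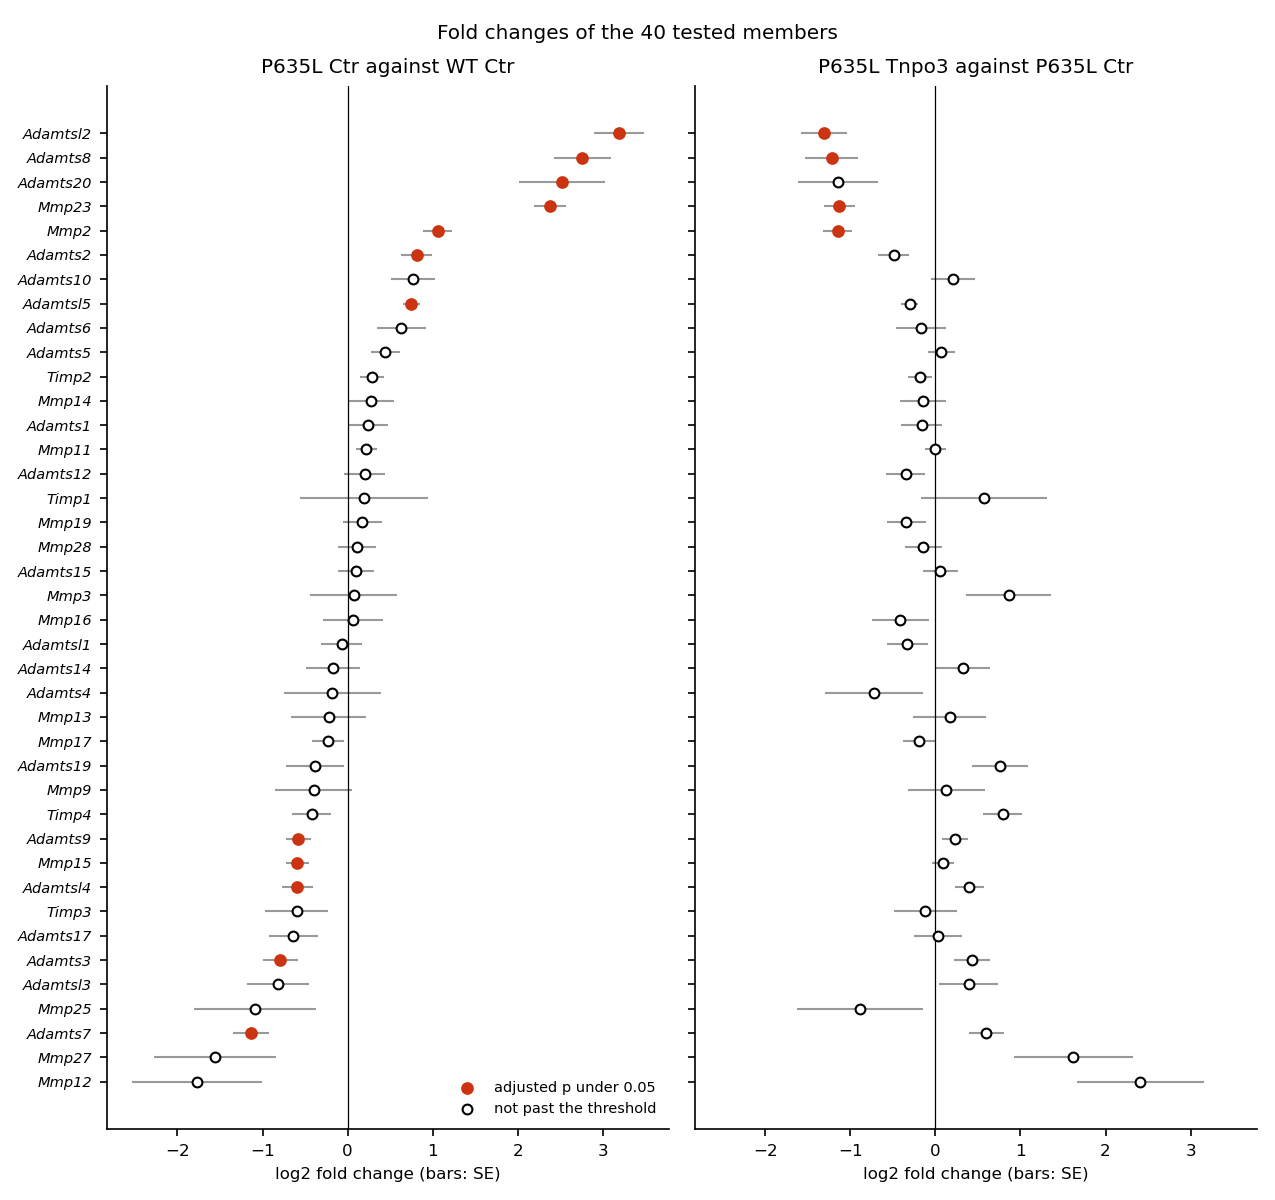
Log2 fold change with its SE for each of the 40 tested genes, ordered by P635L Ctr against WT Ctr (left), with P635L Tnpo3 against P635L Ctr on the right; filled points have an adjusted p under 0.05. Both panels share the P635L Ctr libraries. The 4 filled points on the right are Adamtsl2, Adamts8, Mmp23 and Mmp2.

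In WT hearts the Tnpo3 virus gave 0 of 40 calls (0.00536% of all genes) by edgeR and 0 by DESeq2, and 2 genes had an unadjusted p under 0.05, against 3.20% of all genes. These were Timp4 (log2 fold change 0.73, SE 0.23, unadjusted p = 0.00605) and Mmp25 (-1.61, SE 0.75, unadjusted p = 0.0454). Timp4 was 110, 44.0, 71.9 and 63.7 CPM in WT Tnpo3, with replicate 2 inside the WT Ctr range. Mmp25, a membrane-anchored MMP known from leukocytes, reached 2.53 CPM in WT Ctr replicate 1 and 0.0825 to 0.433 CPM in the other 15 libraries. Mmp23 and Adamtsl2 differed by 0.02 (SE 0.18) and 0.10 (SE 0.27) on the log2 scale between the WT groups.

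Whether the virus acted differently in the 2 genotypes was tested by an interaction term, which called 1 of the 40 genes (2.5%, against 0.504% of all genes). Mmp2 was lower with Tnpo3 in P635L hearts and 44.9, 36.6, 27.2 and 31.1 CPM in WT Tnpo3, overlapping WT Ctr. Its interaction was -1.27 on the log2 scale (SE 0.24, adjusted p = 0.0188). That call was lost without WT Ctr replicate 3, P635L Ctr replicate 4, P635L Tnpo3 replicate 1 or P635L Tnpo3 replicate 3 (adjusted p = 0.0539, 0.0584, 0.0525 and 0.0598). Without the 3 libraries with high Xist, its adjusted p was 0.0814. Mmp23 (-1.15, SE 0.26, adjusted p = 0.0521), Adamts8 (-1.90, SE 0.45, 0.0724) and Adamtsl2 (-1.41, SE 0.38, 0.13) did not pass.

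The genotypes were also compared under the Tnpo3 virus, in P635L Tnpo3 against WT Tnpo3, which shares no library with P635L Ctr against WT Ctr. In both comparisons the libraries with high Xist were all on the WT side. The comparison under the Tnpo3 virus was made in the same fit. It gave 5 of 40 calls (12.5%, against 3.72% of all genes, 1.72% higher and 2.0% lower): Mmp23 (log2 fold change 1.23, SE 0.18, adjusted p = 0.000852), Adamtsl2 (1.78, SE 0.28, 0.00181), Adamtsl5 (0.54, SE 0.10, 0.00421) and Adamts10 (1.02, SE 0.26, 0.0378) were higher and Adamts9 (-0.59, SE 0.15, 0.0326) was lower. The calls of Adamts9 and of Adamts10 were each lost in 9 of 26 alternative analyses. Of the 12 genes called between P635L Ctr and WT Ctr, 11 had the same sign here (91.7%) and 4 were called again (33.3%), against 87.9% and 17.6% of the 2653 genes called over the whole table. Mmp2 was the exception in sign (-0.21, SE 0.17, adjusted p = 0.53). Adamts10, a protease that acts on fibrillin microfibrils, lies on chromosome 17 from 33743178 to 33772756 (plus strand) and was the highest Adamts gene per length in every group. It was 47.2, 75.4, 108 and 88.7 CPM in WT Tnpo3 and 131, 179, 150 and 187 CPM in P635L Tnpo3, without overlap.

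Against WT Ctr, P635L Tnpo3 hearts had 6 of 40 calls (15%, against 3.07% of all genes), 5 higher and 1 lower (1.49% and 1.58% of all genes). The higher genes were Mmp23 (log2 fold change 1.25, SE 0.18, adjusted p = 0.000698), Adamtsl2 (1.88, SE 0.28, 0.00116), Adamts8 (1.55, SE 0.33, 0.0136), Adamtsl5 (0.46, SE 0.10, 0.0144) and Adamts10 (0.98, SE 0.26, 0.049), and Mmp15 was lower (-0.50, SE 0.13, 0.0376). Without P635L Tnpo3 replicate 4 the count fell to 2. The calls of Mmp15 and Adamts10 were lost in 16 and 15 of 26 alternative analyses. Adamts8 lost its call without P635L Tnpo3 replicate 4 (log2 fold change 1.04, adjusted p = 0.0522), with only the 2 groups fitted (1.58, 0.0786), without the 3 ENSMUSG00000119584-rich libraries (1.64, 0.0912) and without the 3 with high Xist (1.51, 0.0531). Adamtsl5 lost its call without P635L Tnpo3 replicate 4 (0.42, 0.0616). Mmp2 did not differ past the threshold here (-0.09, SE 0.17, adjusted p = 0.827).

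In the region chr9:7272514-7699586 (GRCm39) 10 members lie side by side, of which 4 had 0 counts in every library, 4 were tested and 0 were called in any comparison. Mmp3, stromelysin 1, was the highest of them per length, at 1.71 ± 1.15 CPM per kb in WT Ctr and 1.78 ± 0.227 in P635L Ctr. In CPM it was 3.57, 2.73, 3.54 and 3.01 in P635L Ctr and 4.91, 4.32, 3.37 and 10.6 in P635L Tnpo3, with overlap (log2 fold change 0.86, SE 0.50, adjusted p = 0.392). Mmp12 was 0.323, 0.296, 0.0228 and 0.245 CPM in P635L Ctr and 1.61, 1.83, 1.21 and 0.212 CPM in P635L Tnpo3. Replicate 4 of P635L Tnpo3 stayed at the P635L Ctr level (log2 fold change 2.41, SE 0.75, adjusted p = 0.0839). Outside this cluster, Adamts15, another proteoglycanase, lies 20109 bases from Adamts8 and had a log2 fold change of 0.10 (SE 0.21, adjusted p = 0.795) between P635L Ctr and WT Ctr.

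In the authors' deposited splicing tables, 78 events in 19 of the genes were listed between P635L Ctr and WT Ctr, and 52 had at least 10 junction reads a library on average in both groups. Of these, 1 was called (rMATS false discovery rate under 0.05 and a difference in inclusion of at least 0.1). That share is no higher than the 2.52% of all such events. The event is retention of an intron of Mmp11, stromelysin 3, at chr10:75759325-75759792 (GRCm39, minus strand). The inclusion level of the intron, which the authors' rMATS run corrects for length, was 0.94, 0.95, 0.938 and 0.968 in the listed WT Ctr libraries and 0.883, 0.838, 0.81 and 0.735 in those of P635L Ctr (false discovery rate 0.00033). All P635L Ctr values were below all WT Ctr values, but the spliced form rested on 1 to 3 reads in each WT Ctr library. In P635L Tnpo3 the level was 0.885 ± 0.091 and in WT Tnpo3 0.878 ± 0.042 (SD, n = 4). The WT Tnpo3 libraries were at 0.844, 0.854, 0.938 and 0.875 by listed position, and only the one at 0.938 reached the WT Ctr range. The mutant groups overlapped (exact permutation p = 0.286, two-sided). The gene level of Mmp11 did not pass the test, and Chchd10 on the other strand shares 0 bases with this intron.

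Between P635L Tnpo3 and WT Ctr 1 of 50 events was called, a share no higher than the 2.12% of all events. The event is an alternative 3′ splice site of Adamtsl5 on chromosome 10 between 80183391 and 80183689. Inclusion of the longer exon was 0.029, 0.102, 0.122 and 0.108 in WT Ctr, 0.129, 0.112, 0.073 and 0.079 in P635L Ctr and 0.246, 0.176, 0.193 and 0.17 in P635L Tnpo3, by listed position. The P635L Tnpo3 libraries lay above all 8 control-virus libraries (exact permutation p against P635L Ctr = 0.0286, two-sided, the smallest that 4 against 4 libraries can give). The event was picked because these same P635L Tnpo3 libraries differed from WT Ctr. The permutation p was not corrected for that choice and is not separate support. In WT Tnpo3 it was 0.06, 0.155, 0.209 and 0.2, and the spread reached from the WT Ctr level to that of P635L Tnpo3. Between WT Tnpo3 and WT Ctr 0 of 46 events were called (0.941% of all).

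Genes that act with these proteases were counted in the same fit, from lists chosen with earlier results in view. Their counts stand beside 7.07% of all genes higher and 7.14% lower between P635L Ctr and WT Ctr, 14.2% in all, and 3.88% called between P635L Tnpo3 and P635L Ctr. Of 22 tested substrates 13 were higher in P635L Ctr than in WT Ctr and 0 lower, led by Fmod (fibromodulin, log2 fold change 5.21, SE 0.62, adjusted p = 5.19e-05), Bgn (biglycan, 1.40, SE 0.21, 0.000155) and Dcn (decorin, 0.87, SE 0.15, 0.000569). With Tnpo3 in P635L hearts 6 of the 22 were lower and 0 higher, among them Fmod (-2.14, SE 0.51, adjusted p = 0.0295). The median of the list was 0.73 and -0.40 in these comparisons, against -0.05 and 0.01 for all genes. Of 9 genes that process or bind ADAMTS proteins or their procollagen substrates, 3 were higher in P635L Ctr: Pcolce (1.44, SE 0.13, adjusted p = 1e-06), which enhances procollagen C-proteinase, Fbn2 (fibrillin 2, 1.57, SE 0.37, 0.00832) and Bmp1, the C-proteinase (0.48, SE 0.16, 0.0468). Pcolce was lower with Tnpo3 (-0.63, SE 0.13, adjusted p = 0.0111).

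Of 17 tested genes that activate, inhibit or clear the proteases, 5 were higher and 1 lower in P635L Ctr, against 14.2% of all genes called. Among the higher genes were Lrp1, an endocytic receptor of proteases (log2 fold change 0.80, SE 0.15, adjusted p = 0.00123), and Pcsk5, a proprotein convertase (0.76, SE 0.17, 0.00442). With Tnpo3, 1 of the 17 differed, against 3.88% of all genes, so that the share is near that of the background. It was Bsg (basigin, 0.43, SE 0.12, adjusted p = 0.046), an inducer of MMPs. Of 10 ADAM genes, from the family of cell-surface relatives, 1 was called between P635L Ctr and WT Ctr, a share no higher than the 14.2% of all genes. It was Adam22, at -0.64 (SE 0.21, adjusted p = 0.0464).

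Most fibroblast markers rose in P635L Ctr, where 7 of the 12 called Mmp, Adamts and Adamtsl genes rose and 5 fell. The atrial list and the cartilage and valve-like list had 1 called gene each there. Of 6 fibroblast markers 5 were higher in P635L Ctr than in WT Ctr and 0 lower, against 7.07% and 7.14% of all genes. Dcn, 1 of the 6, is also on the substrate list. With Tnpo3 in P635L hearts 4 of these 6 markers were lower and 0 higher, against 3.88% of all genes called. In P635L Tnpo3, 0 of the 6 were called against WT Ctr and 0 against WT Tnpo3, with median log2 fold changes of 0.16 and 0.17. Mmp23 and Adamtsl2 were called higher in both of these comparisons, and Mmp2 in neither. The summed level of the 6 fibroblast markers was 2120 to 2590 CPM in WT Ctr, 2120 to 2700 in WT Tnpo3, 3300 to 4580 in P635L Ctr and 2430 to 2970 CPM in P635L Tnpo3, with none at 0. For 6 markers of activated fibroblasts the sums were 167 to 232, 194 to 259, 326 to 549 and 174 to 514 CPM in the same order, and P635L Tnpo3 replicate 4 was the library at 514 CPM. Of these 6 markers 3 were higher in P635L Ctr than in WT Ctr and 0 lower, and 0 were called between P635L Tnpo3 and P635L Ctr. The 4 cartilage and valve-like markers summed to 4.25 to 9.23 CPM in WT Ctr, 2.85 to 7.1 in WT Tnpo3, 20.9 to 80.5 in P635L Ctr and 11.1 to 58.3 CPM in P635L Tnpo3, and 1 of the 4 was called higher in P635L Ctr, Comp (log2 fold change 3.41, SE 0.62, adjusted p = 0.00239), which is also on the substrate list. Nppa, the 1 called gene of the 2 tested on the atrial list, was higher in P635L Ctr (log2 fold change 4.84, SE 0.52, adjusted p = 1.85e-05) and lower with Tnpo3 in P635L hearts (-1.97, SE 0.46, adjusted p = 0.0277). A call on a single gene does not show a change in the number of such cells. The part of these markers in the changes of Mmp, Adamts and Adamtsl genes was not tested. Of 6 markers of ventricular cardiomyocytes 3 were lower in P635L Ctr than in WT Ctr. The 5 endothelial markers and the 5 smooth muscle and pericyte markers had median log2 fold changes of -0.07 and 0.03 there. Neutrophil markers summed to 1.79 to 7.86 CPM over the 16 libraries, and of 5 macrophage markers 1, Cd68, was lower in P635L Ctr (log2 fold change -0.88, SE 0.29, adjusted p = 0.0476). The Cd68 comparison includes WT Ctr replicate 1, whose macrophage markers summed to 440 CPM, and was not recomputed without that library.

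In the authors' deposited tables of differential expression, 14 of the genes had an adjusted p under 0.05 between P635L Ctr and WT Ctr, 9 higher and 5 lower. All 12 calls made here are among them, and the other 2 are Adamts10 and Adamts5. Between P635L Tnpo3 and WT Ctr the authors' deposited table had 7, namely the 6 called here and Adamts5, and between WT Tnpo3 and WT Ctr it had 0.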

How the data were processed

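RNA-seq libraries of 16 left ventricles were analysed, 4 in each of 4 groups taken from the sample titles. The deposited gene table holds raw counts, made by the authors with STAR 2.7.9a and featureCounts 2.0.6 on GRCm39 per the submitters' processing notes. The annotation and the use of strand in counting are not given in the sources used here. The deposited table also gives the summed exon length of each gene. The authors' DESeq2 tables hold log2 fold changes, a mean normalised signal, a Wald score and p-values per the file headers, each against WT Ctr, and their sign was turned so that positive means higher than WT Ctr. The authors' rMATS tables hold junction reads, inclusion levels, a difference score and p-values per the file headers, and do not state the order of libraries.

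Counts were tested with edgeR 4.0.16 in R 4.3.3 (robust quasi-likelihood F test, TMM factors, filterByExpr, a mean per group over 16 libraries, 12 residual degrees of freedom). P-values were adjusted by Benjamini and Hochberg's method across 18662 genes, with a threshold of 0.05. The test was tested on simulated data. Library totals of 28493249 to 85922669 counts set the precision. Each SE is the absolute log2 fold change divided by the square root of the F statistic of that test. CPM use TMM factors. Symbols came from the splicing tables for 11276 genes and from a table of gene names for 40786. Alternatives were DESeq2 1.42.0, other scalings and filters, fits on 2 groups, a replicate block, and leaving out libraries or ENSMUSG00000119584.

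The genes and lists were chosen with earlier results of these data known. Named genes are the Timp genes, Mmp2, Mmp9, Mmp14, Adamts1, Adamts2, Adamts4, Adamts5, Adamtsl2 and every member called in a comparison, and at most 3 called genes of each related list with the smallest p. Mmp3, Mmp11, Mmp12, Mmp25, Adamts14, Adamts15, Nppa, Comp, Bsg, Cd68 and Adam22, and the second values of related genes, were chosen after their values were seen. Some results that this rule would name are not reported here.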

Additional observations from a re-analysis of the deposited data

Results flagged for a closer look

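For 22 named genes the highest or lowest library of each group of 4 was compared with the others, in 88 groups, of which chance alone would mark about 1 in 20. A library stood apart in 8. WT Ctr replicate 1 had 32.1 CPM of Timp1, against 1.34 to 5.16 CPM in the rest of its group. P635L Tnpo3 replicate 4 had 45.4 CPM of Mmp23, against 25.9 to 28.1 CPM. WT Tnpo3 replicate 3 stood apart for 3 genes: Mmp23 at 18 CPM (others 11.2 to 12.3), Adamts5 at 55.0 CPM (36.7 to 38.6) and Adamts8 at 1.06 CPM (1.45 to 1.51). P635L Ctr replicate 3 had 23.0 CPM of Adamts1 (others 37.7 to 40.6) and 30.4 CPM of Adamts7 (16.7 to 18.2). P635L Tnpo3 replicate 3 had 37.9 CPM of Adamts1 (29.0 to 30.1).

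The effect of the Tnpo3 virus on Mmp2 differed between the genotypes, with an interaction of -1.27 on the log2 scale (edgeR, adjusted p = 0.0188). That call was lost in 5 of 25 alternative analyses, among them the edgeR fit without the 3 libraries with high Xist (adjusted p = 0.0814).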

How the results depend on the processing

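Over 47 pairs of a named gene and a comparison, 1219 values were recomputed under up to 26 alternatives: 1111 kept their direction and side of the threshold, 84 lost their call, 11 gained one and 13 changed sign. Mmp23, Adamtsl2, Adamts8, Adamtsl5, Mmp2, Adamts7, Adamts20 and Adamts2 kept their call between P635L Ctr and WT Ctr under all 26, as did Mmp2 and Mmp23 between P635L Tnpo3 and P635L Ctr. All changes of sign were in genes not called. Between P635L Ctr and WT Ctr, leaving out 1 library gave -0.18 to 2.08 for Timp1 (negative without WT Ctr replicate 3, -0.18, or 4, -0.16) and -0.54 to 0.25 for Adamts4 (positive without WT Ctr replicate 1, 0.25, WT Ctr replicate 2, 0.15, or P635L Ctr replicate 2, 0.09). Without the 3 libraries rich in ENSMUSG00000119584 Timp1 was -0.48 and Timp3 0.08, and without the 3 with high Xist Timp1 was -0.12. Between P635L Tnpo3 and P635L Ctr, leaving out 1 library gave -0.31 to 0.04 for Timp3, -0.29 to 0.49 for Mmp9 (also -0.08), -0.30 to 0.03 for Mmp14 and -0.09 to 0.16 for Adamts5. The count of 4 between P635L Tnpo3 and P635L Ctr became 7 with DESeq2 and 8 with only the 2 groups fitted. The count of 6 between P635L Tnpo3 and WT Ctr became 3 without the libraries rich in ENSMUSG00000119584 and 3 without those with high Xist. The count of 5 between P635L Tnpo3 and WT Tnpo3 became 8 with DESeq2 and 3 without the libraries with high Xist. The interaction count of 1 became 2 with median-ratio factors, 3 without a filter, 2 with a mean of at least 1 CPM, 4 with DESeq2, 2 without ENSMUSG00000119584 in the table and 0 without the libraries with high Xist; the fit on 2 groups was not run for it. The cause was not tested. Leaving out 1 library at a time gave 10 to 15 calls between P635L Ctr and WT Ctr, 0 between the WT groups, 3 to 5 between P635L Tnpo3 and P635L Ctr, 2 to 6 between P635L Tnpo3 and WT Ctr, 3 to 8 between P635L Tnpo3 and WT Tnpo3 and 0 to 4 for the interaction. At an inclusion difference of at least 0.2, 0 splicing events were called between P635L Ctr and WT Ctr and 0 between P635L Tnpo3 and WT Ctr. Same-numbered libraries had a median correlation of -0.058 over 24 pairs, against 0.013 over 72 others. Between WT Ctr and WT Tnpo3 alone the 4 same-numbered correlations were 0.132, 0.094, 0.433 and 0.696, of which the second missed the 0.1 asked of every pair, so the numbers were not taken as a pairing. With a replicate block the counts were 12, 0, 6, 4, 4 and 2 for the same comparisons in the order P635L Ctr against WT Ctr, WT Tnpo3 against WT Ctr, P635L Tnpo3 against P635L Ctr, against WT Ctr and against WT Tnpo3, and the interaction. Mmp12 and Mmp25 rest on few counts in most libraries and had SEs of 0.76 and 0.72 on the log2 scale between P635L Ctr and WT Ctr, against 0.19 for Mmp23.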
